A study of Mus musculus with 8 samples.

Results

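Interferon-stimulated genes were followed in keratinocytes of the hair matrix, the proliferative epithelium of the follicle bulb from which the hair shaft is built. The set held 35 genes chosen by symbol, all of them listed in both deposited expression tables, out of 32693 genes listed in either table. It was put together to look for a viral mimicry response to 5-aza or to the loss of Tet2 and Tet3. The mice were wild type (WT) or Tet2/Tet3 double knockout (DKO) with Cre recombinase driven by the Krt14 promoter, which is active in basal epithelial cells, so the deletion is limited to cells with that history. Both genotypes were studied untreated or after 50 µg of 5-aza injected under the skin at postnatal day 2.5, and in all 4 groups the cells were sorted by flow cytometry from skin taken at postnatal day 4.5. Each group had 2 libraries, and the labels do not say whether these came from separate animals, so p-values measure only the spread between these libraries, which may be technical.

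Type I and type III interferons bind receptors that activate the kinases JAK1 and TYK2, which phosphorylate STAT2 among other proteins. STAT2 and IRF9 are part of a complex that binds the interferon-stimulated response element in promoters and switches on antiviral genes. In tumour cells, DNA methyltransferase inhibitors such as the 5-aza nucleosides are known to release methylated endogenous retroviruses, whose double-stranded RNA is read by sensors such as MDA5 as if a virus were present, and this is what viral mimicry means. TET enzymes oxidise 5-methylcytosine and so oppose methylation.

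The untreated libraries had 19528602 to 22837436 reads behind the deposited values and the 5-aza libraries 39493929 to 58353167, of which the listed genes held 55.8% to 62.0% and 38.4% to 42.4%. Because the authors normalised the untreated and the 5-aza table separately, levels across them are given as RPM, reads per 1000000 reads in the 26200 genes that both tables list, and no test was made between them. The treatment cannot be told apart from anything else that differed between the tables, which include 2 library kits that the labels name without tying either to a group. Tet3 was lower in DKO but not lost, at 11.8 and 11.4 FPKM (reads scaled to gene length and library total) in untreated WT against 6.92 and 7.31 in untreated DKO. Tet2 differed less in the authors' deposited table, by a log2 difference (DKO minus WT) of -0.33 untreated and -0.35 after 5-aza. It did not pass there in either comparison (adjusted p = 0.2999 and 0.4004). A value over the whole gene does not show the deleted part. The keratinocyte markers Krt5 and Krt14 were abundant in every library, at 29.5 FPKM of Krt14 or more. This does not measure purity. In the untreated libraries 8 fibroblast markers summed to 8966 to 22070 RPM, above the 3296 to 5254 RPM of 12 keratinocyte markers. In the 5-aza libraries the fibroblast markers summed to 2066 to 4145 RPM, below the 4279 to 5659 RPM of the keratinocyte markers. Within the 5-aza groups the libraries differed across the set: WT replicate 1 was above WT replicate 2 in 29 of 35 members (50.31% of all genes), and DKO replicate 2 was above DKO replicate 1 in 34 of 35 (56.67% of all genes). Both held for 28 members, against 36.15% of all genes, so counts and folds that move without 1 of these libraries are also given without it.

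Interferon-stimulated genes stood higher in the 5-aza libraries than in the untreated libraries of the same genotype, in WT and in DKO. Their summed level was 177.6 to 189.7 RPM in untreated WT and 180.8 to 191.3 RPM in untreated DKO. After 5-aza it was 343.8 to 399.7 RPM in WT and 401.5 to 470.3 RPM in DKO. Isg15, Bst2, Ifit1, Ifit3, Oasl2, Oas1a, Usp18 and Xaf1 showed the widest gaps, of 5.48-fold or more in both genotypes, while the pathway's constitutive component Stat2 differed by 1.28-fold in WT and 1.43-fold in DKO. Cmpk2 was the exception, lower after 5-aza in both genotypes. In bulk samples, more responding cells and more RNA per cell cannot be told apart.

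In WT, both 5-aza libraries lay above both untreated libraries for 29 of 35 members, where 28.7% of all genes with a read did so. In DKO this held for 31 of 35 members, against 28.5% of genes. For 26 members it held in both genotypes, against 20.2% of genes, and only Cmpk2 lay below, in WT (33.8% of genes), in DKO (34.2%) and so in both (24.5%). A gap of at least 2-fold was reached by 21 members in WT (7.7% of genes) and 22 in DKO (7.07%), and by 17 in both (3.92%). The median log2 difference over the 35 members was 1.34 in WT and 1.25 in DKO, and over all genes with a read it was -0.060 and -0.061. In the FPKM as deposited, whose scaling to the whole library total shifts all genes by -0.62 in WT and -0.57 in DKO on the log2 scale, 21 members in WT (8.56% of genes) and 23 in DKO (9.48%) still lay above both untreated libraries. Fewer than 10 untreated reads stood behind 8 members in WT and 6 in DKO, and the counting intervals of their folds are wide.

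With 1 treated library alone against the untreated pair, the fold stayed above 1 for 32 (replicate 1) and 30 (replicate 2) of the 33 members with untreated reads in WT, and for 33 and 34 of 35 in DKO. It moved by more than 1.5 times for 6 members in WT and 7 in DKO. With replicate 1 or replicate 2 alone, Ifit3 was at 19.6-fold or 9.34-fold in WT and at 6.65-fold or 28.5-fold in DKO, and Mx2 at 3.70-fold or 1.15-fold in WT and 1.53-fold or 3.82-fold in DKO. In WT the other such members were Mx1 (4.18-fold or 2.04-fold), Ifih1 (1.42 or 0.657), Rtp4 (1.98 or 0.908) and Ifi44 (20.6 or 1.56). In DKO they were Ifit1 (4.86 or 10.8), Gbp3 (2.39 or 5.55), Rsad2 (1.38 or 8.89), Zbp1 (1.06 or 3.42) and Ifit3b (0.658 or 2.63). Replicate 1 gave the larger fold for each of these in WT and replicate 2 in DKO, as in the library order above.

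**Figure D1:**
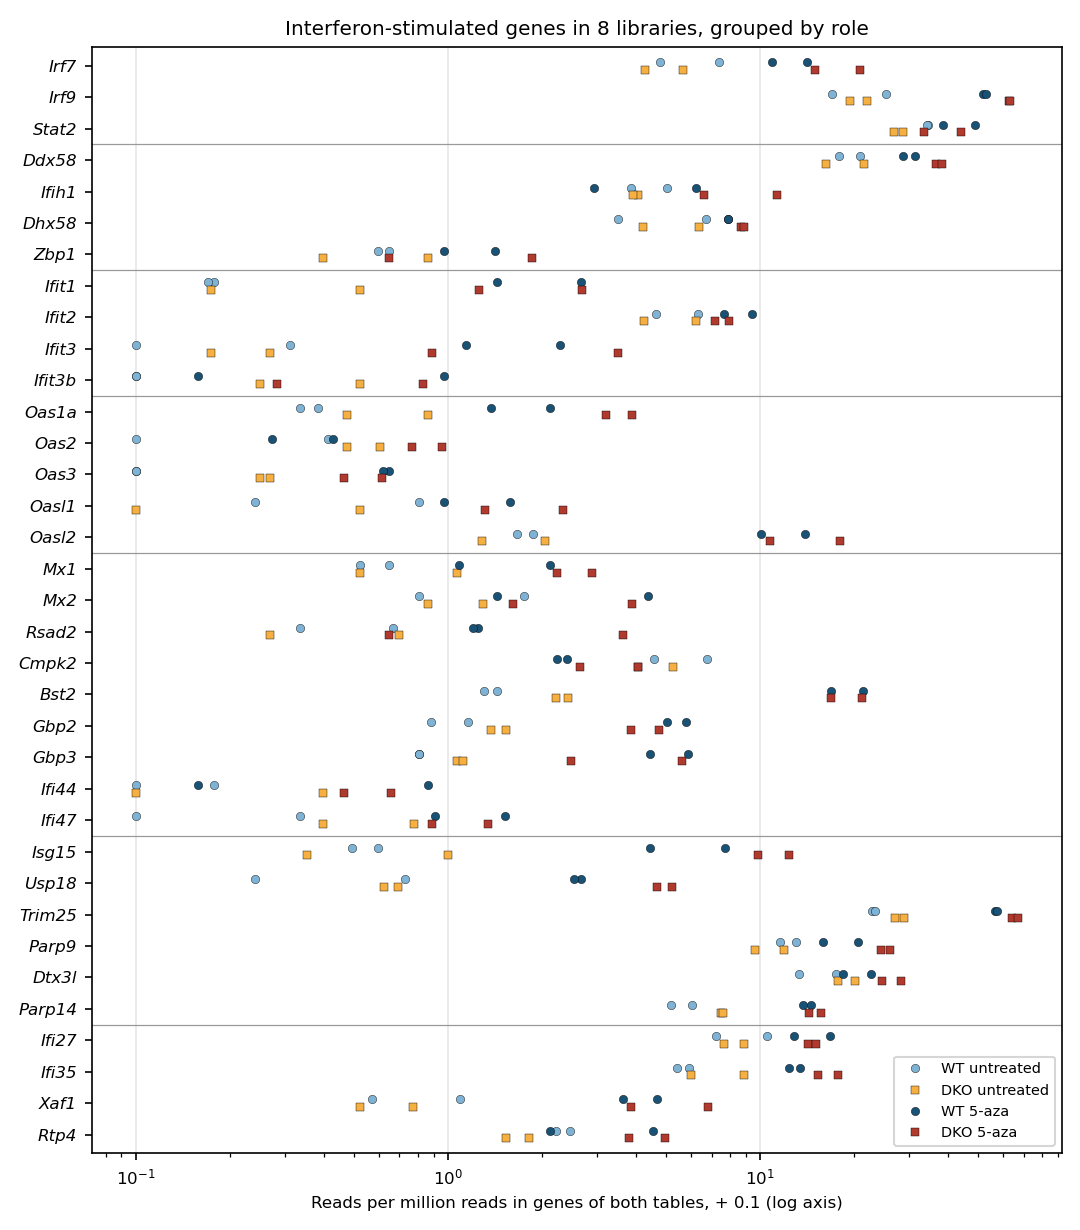
Level of each of the 35 interferon-stimulated genes (rows, grouped by role) in each of the 8 libraries, in RPM plus 0.1 on a log axis; circles are WT and squares DKO, light for untreated and dark for 5-aza. The dark symbols lie to the right of the light ones in most rows, with Bst2, Isg15 and Oasl2 widely apart and Cmpk2 the other way round.

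**Figure D2:**
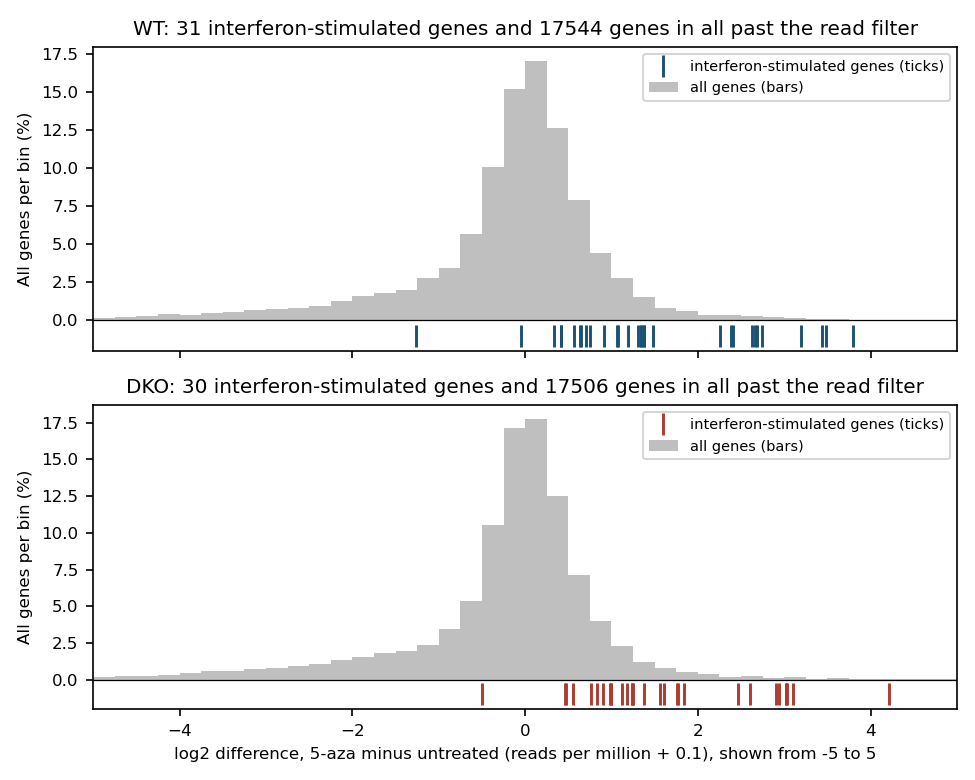
Distribution of the log2 difference between 5-aza and untreated libraries (x axis, median over library pairs, RPM plus 0.1) for all genes past a read filter (grey bars, percent of genes per bin) and for interferon-stimulated genes (ticks), in WT (upper panel) and DKO (lower panel). The bars centre near 0, whereas most ticks lie to the right and 1 tick in each panel, Cmpk2, lies clearly to the left.

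The factors that carry the interferon signal were present without treatment. Stat2, which is activated at the interferon receptor, was at 34.6 and 34.2 RPM in untreated WT, 28.7 and 26.8 in untreated DKO, 48.9 and 38.6 in WT after 5-aza, and 33.4 and 44.1 in DKO after 5-aza. The 5-aza libraries were the higher ones in both genotypes on this scale, but in the FPKM as deposited the difference reversed to -0.26 in WT and -0.09 in DKO (log2), so no direction is given for Stat2. Irf9, the DNA-binding subunit of the complex, was at 25.3 and 16.9 RPM in untreated WT and 21.9 and 19.3 in untreated DKO, and at 51.9 and 53.0 in WT and 62.6 and 63.2 in DKO after 5-aza. No untreated library reached a 5-aza library, and the fold was 2.51 in WT (95% counting interval 2.28 to 2.76) and 3.04 in DKO (2.77 to 3.35). Irf7, which amplifies type I interferon transcription and is itself induced by interferon, was 2.11-fold higher in WT and 3.79-fold higher in DKO. These intervals and all those below come from an exact binomial split of the summed reads and cover counting error only, not the spread between animals.

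Among the nucleic acid sensors, Ddx58 (RIG-I, a sensor of RNA ends) stood at 20.8 and 17.8 RPM in untreated WT, 21.5 and 16.2 in untreated DKO, 31.3 and 28.7 in WT after 5-aza and 36.5 and 38.2 in DKO after 5-aza. Treated and untreated libraries did not overlap in either genotype on this scale. In the FPKM as deposited, the WT libraries of Ddx58 overlapped, with a log2 difference of 0.014. Dhx58 (LGP2, a regulator of the RNA sensors) was at 6.60 and 3.40 RPM in untreated WT and 7.82 in both treated WT libraries, and at 4.12 and 6.26 against 8.59 and 8.82 RPM in DKO. In the FPKM as deposited, the Dhx58 libraries overlapped in both genotypes, with log2 differences of 0.077 in WT and 0.17 in DKO. Ifih1, which encodes MDA5, the sensor of long double-stranded RNA named in viral mimicry, had overlapping libraries in 1 genotype only. In WT its libraries overlapped, at 4.95 and 3.75 RPM untreated against 6.13 and 2.84 after 5-aza, a ratio of 1.05 (95% counting interval 0.821 to 1.34). In DKO they did not, at 3.97 and 3.81 against 6.52 and 11.3 RPM, a ratio of 2.39 (1.91 to 3.02). Whether the treatment acted differently on Ifih1 in the 2 genotypes was tested as an interaction, which did not pass (limma adjusted p = 0.852). The value for WT also turned with 1 library, from a log2 difference of -0.044 to 0.50 without the WT 5-aza replicate 2. Zbp1, a sensor of Z-form nucleic acids, stayed under 2 RPM in every library.

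The IFIT proteins bind foreign RNA and block its translation, and their genes lie side by side on chromosome 19 (GRCm38). Ifit1 (chr19:34640871-34650009) had 2 reads in the untreated WT libraries together and 70 in the 5-aza libraries, a 26.4-fold difference with a counting interval of 7.05 to 223. In DKO it had 6 and 79 reads, an 8.36-fold difference (3.68 to 23.5). Ifit3 (chr19:34583531-34588731) stood at 0 and 0.212 RPM in untreated WT, 0.0748 and 0.169 in untreated DKO, 2.19 and 1.04 in WT after 5-aza and 0.792 and 3.40 in DKO after 5-aza. Every treated library was above every untreated one. The ratio was 14.6 in WT (4.76 to 72.9) and 19.5 in DKO (6.46 to 96.2), from 3 untreated reads in each genotype. Ifit2 was already at 4.56 and 6.23 RPM in untreated WT and 6.14 and 4.15 in untreated DKO, and reached 7.55 and 9.33 in WT and 7.07 and 7.83 in DKO after 5-aza. Its folds of 1.55 and 1.44 were far below those of its neighbours, and in the FPKM as deposited its log2 difference was 0.027 in WT and turned to -0.010 in DKO. Ifit3b was at 0 reads in both untreated WT libraries and at 17 reads after 5-aza, at least 4.28-fold higher against a floor of 3 counts over the group, while in DKO its libraries overlapped. Of the 75-base windows of Ifit3b transcripts, 35.67% also occur in Ifit3, so the split of reads between these paralogs is uncertain.

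The OAS enzymes make a messenger that activates RNase L on double-stranded RNA, and the OAS-like proteins are their relatives. Oasl2 was at 1.57 and 1.77 RPM in untreated WT and 1.95 and 1.19 in untreated DKO. After 5-aza it stood at 13.9 and 9.97 RPM in WT and 10.7 and 17.99 in DKO, a 7.15-fold (5.25 to 9.96) and a 9.42-fold (6.83 to 13.3) difference. Oas1a, an active synthetase, was at 0.236 and 0.283 RPM in untreated WT, 0.374 and 0.762 in untreated DKO, 2.02 and 1.27 in treated WT and 3.11 and 3.79 in treated DKO. The 4 groups formed a ladder in which neither treatment nor genotype overlapped, although 47.6% of the 75-base windows of Oas1a also occur in Oas1g and its counts are uncertain for that reason. Oasl1 was 2.88-fold higher in WT and 9.15-fold higher in DKO, the latter from 5 untreated reads. In the FPKM as deposited, the WT libraries of Oasl1 overlapped, with a log2 difference of 0.30. Oas3 had 0 reads in untreated WT and 19 after 5-aza, at least 4.78-fold higher on the same floor, and in DKO 4 and 18 reads. Oas2 stayed under 1 RPM in every library, and its WT libraries overlapped.

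Of the antiviral effectors, Bst2 showed the widest gap in WT. This gene, on chr8:71534255-71537456, encodes tetherin, which holds budding virus particles at the cell surface. It stood at 1.33 and 1.20 RPM in untreated WT, 2.32 and 2.12 in untreated DKO, 21.3 and 16.9 in WT after 5-aza and 16.8 and 21.2 in DKO after 5-aza. The treated libraries of both genotypes covered the same range and lay far above all untreated ones, at 15.1-fold (10.72 to 22.04) in WT and 8.71-fold (6.64 to 11.6) in DKO. Gbp2, a guanylate-binding protein that attacks pathogen vacuoles, was at 0.786 and 1.06 RPM in untreated WT and 1.27 and 1.44 in untreated DKO, and at 5.69 and 4.92 in WT and 3.78 and 4.65 in DKO after 5-aza. Its neighbour Gbp3 stood at 0.707 and 0.708 against 5.80 and 4.35 RPM in WT and at 0.973 and 1.02 against 2.38 and 5.51 RPM in DKO. For both genes the treated libraries lay above the untreated ones.

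The dynamin-like restriction factors were low throughout. Mx1 was 3.14-fold higher in WT and 3.53-fold higher in DKO, and Mx2 was 2.46-fold and 2.87-fold higher with overlapping WT libraries. In the FPKM as deposited, the DKO libraries of Mx2 also overlapped, with a log2 difference of 0.38. Ifi44 was under 1 RPM in every library. Ifi47, an interferon-inducible GTPase, was 10.1-fold higher in WT (3.21 to 50.9, from 3 untreated reads) and 2.22-fold higher in DKO. In the FPKM as deposited, its DKO libraries overlapped, with a log2 difference of 0.175. Ifi47 lies within a shared locus with Olfr56 on the same strand, so reads could be assigned to either.

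Rsad2 and Cmpk2 are head-to-head neighbours on chromosome 12 that are usually induced together, the first encoding viperin, an antiviral enzyme that makes a chain-terminating nucleotide, and the second a nucleotide kinase of the mitochondria. Rsad2 (chr12:26442746-26456452) was at 0.236 and 0.567 RPM in untreated WT, 0.599 and 0.169 in untreated DKO, 1.15 and 1.10 in WT after 5-aza and 0.548 and 3.53 in DKO after 5-aza. It was higher without overlap in WT (2.75-fold, 1.38 to 5.94), while the DKO libraries overlapped at 5.78-fold on the summed reads, which DKO replicate 2 carried. Cmpk2 (chr12:26469204-26479837) went the other way, at 4.48 and 6.66 RPM in untreated WT and 3.97 and 5.16 in untreated DKO against 2.13 and 2.32 in WT and 2.56 and 3.96 in DKO after 5-aza. Its ratio was 0.395 in WT (0.297 to 0.522) and 0.747 in DKO (0.577 to 0.967).

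The ubiquitin-like modifier Isg15 and its protease Usp18 were among the genes with the widest gaps. Isg15 (chr4:156199424-156200818), a ubiquitin-like protein that is conjugated to viral and host proteins, stood at 0.393 and 0.496 RPM in untreated WT and 0.898 and 0.254 in untreated DKO. After 5-aza it was at 7.66 and 4.35 RPM in WT and 9.75 and 12.3 in DKO. No library overlapped across treatment, and among the treated libraries both DKO values were above both WT values. The fold was 13.5 in WT (7.59 to 26.6) and 18.9 in DKO (11.3 to 34.0). Usp18, the protease that removes ISG15 and damps interferon receptor signalling, was 6.72-fold higher in WT and 8.80-fold higher in DKO. Its locus shares 15715 bases with the non-coding gene Gm44148 on the opposite strand, and the strand setting of the counting is not known here. Trim25, a ubiquitin ligase that activates RIG-I, was the most abundant member by RPM in all 4 treated libraries, at 56.6 and 57.4 RPM in WT and 64.3 and 67.0 in DKO against 22.7 and 23.2 and 28.8 and 27.0 untreated. Its libraries did not overlap across treatment in either genotype.

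The ADP-ribosyltransferase genes Parp9 and Parp14 and the ligase gene Dtx3l, whose product partners PARP9, form a cluster on chromosome 16. Parp14 was 2.54-fold higher in WT and 2.02-fold higher in DKO, Parp9 1.49-fold and 2.36-fold, and Dtx3l 1.33-fold and 1.37-fold. In the FPKM as deposited the log2 difference of Dtx3l turned to -0.18 in WT and -0.083 in DKO and that of Parp9 to -0.049 in WT, so no direction is given for these. Parp9 and Dtx3l share 682 bases on opposite strands, and the strand setting of the counting is not given in the sources used here. Of the remaining genes, Xaf1, a proapoptotic factor, was 5.48-fold higher in WT and 9.89-fold in DKO. Ifi35 was at 5.34 and 5.81 RPM in untreated WT, 5.91 and 8.80 in untreated DKO, 12.3 and 13.3 in treated WT and 15.3 and 17.7 in treated DKO. Ifi27 was at 10.4 and 7.15, 7.56 and 8.80, 16.6 and 12.8, and 14.2 and 14.98 RPM in the same order of groups. For both genes the treated libraries were the higher ones, and Ifi35 reached about 2.3-fold in both genotypes while Ifi27 reached 1.69-fold and 1.80-fold. In the FPKM as deposited, the WT libraries of Ifi27 overlapped, with a log2 difference of 0.12. Rtp4, a receptor-transporting protein with antiviral activity, overlapped in WT, where its log2 difference turned to -0.11 in the FPKM as deposited. In DKO Rtp4 was 2.76-fold higher. Its locus shares 39791 bases with Gm45338 on the same strand, so reads could be assigned to either.

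Levels of different members can be compared only per length. The deposited length of a gene matches the summed length of all its annotated transcripts, within 2% for 97.53% of genes, and exceeds the exon length it covers on the genome by more than 1.5 times for 21 members, so RPM per kilobase of merged GENCODE M21 exons was used. On that scale Ifi27 (5.999), Stat2 (5.80), Trim25 (3.99) and Irf9 (3.92) led in untreated WT. After 5-aza Bst2 led in both genotypes, at 21.15 in WT and 21.04 in DKO. In treated DKO Isg15 came next, at 14.6, while in treated WT it stood at 7.94, below Ifi27 (10.03), Trim25 (9.91) and Irf9 (9.73).

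The promoters of the members were searched for the core of the interferon-stimulated response element. The search used GAAANNGAAA and its reverse complement TTTCNNTTTC on either strand, in windows from 250 bases before to 50 bases after the RefSeq start (GRCm38.p6), and 25 of the 35 members had a window. The motif was found in 13 of these (52.0%), against 3.993% of 27025 genes. Past the read filter, the median log2 difference in WT was 2.41 for the 11 members with the motif and 1.31 for the 11 without. In DKO it was 2.12 for 10 and 1.23 for 11. Members can pass this filter through the 5-aza libraries alone, as Ifit1 did in WT with 2 untreated and 70 treated reads. The filter left out Ifit3b (1.97 in WT, 0.42 in DKO) and Oas3 (2.665 and 1.05), which have the motif. It also left out Rsad2 in DKO (1.82), with the motif, and Ifi44 (1.47 in both genotypes), without it. The medians therefore describe these members only and do not measure a difference tied to the motif. A match is a match of letters and not a measured binding site. Of the 8 members named above for the widest gaps, Isg15, Bst2, Ifit1, Ifit3 and Oas1a had the motif, Oasl2 and Xaf1 had a window without it, and Usp18 had no window. Stretches of 60 bases around the match nearest the start are shown for Isg15, Bst2, Ifit1, Ifit3 and its paralog Ifit3b, with every match inside the stretch in capitals (overlapping matches run together), beside that of Stat2, which has the motif but moved little, and that of Rsad2, whose neighbour Cmpk2 has no match in its window. All are from RefSeq, 5′ to 3′ on the strand of the gene.
Isg15, chr4:156200850-156200909, minus strand: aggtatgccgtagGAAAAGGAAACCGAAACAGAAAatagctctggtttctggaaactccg
Bst2, chr8:71537562-71537621, minus strand: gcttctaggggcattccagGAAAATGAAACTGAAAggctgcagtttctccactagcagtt
Ifit1, chr19:34640779-34640838, plus strand: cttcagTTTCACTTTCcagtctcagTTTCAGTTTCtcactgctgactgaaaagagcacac
Ifit3, chr19:34583382-34583441, plus strand: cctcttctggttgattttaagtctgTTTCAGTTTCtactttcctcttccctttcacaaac
Ifit3b, chr19:34607778-34607837, plus strand: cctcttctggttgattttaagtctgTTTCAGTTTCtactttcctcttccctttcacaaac
Stat2, chr10:128270251-128270310, plus strand: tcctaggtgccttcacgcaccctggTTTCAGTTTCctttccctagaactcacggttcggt
Rsad2, chr12:26456538-26456597, minus strand: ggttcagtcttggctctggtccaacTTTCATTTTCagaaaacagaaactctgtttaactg
The Isg15 stretch holds 3 matches, those of Bst2 and Ifit1 hold 2 each and the others 1. The match nearest the start begins 66 bases before the start of Isg15, 124 before that of Bst2, 85 before that of Ifit1, 122 before that of Ifit3 and 222 before that of Stat2. The stretches of Ifit3 and Ifit3b are identical, whereas Ifit3 had treated libraries of up to 3.40 RPM and Ifit3b of at most 0.875 RPM. The median number of CpG dinucleotides in a window was 6 in the members and 7 over all genes.

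Interferon genes themselves were barely seen. Of 21 interferon ligand genes looked up, 4 were listed in the untreated table, with 0 to 3 reads in any library, and 1, Ifne, in the 5-aza table, with 0, 1, 0 and 1 reads. Ifnb1 and Ifng were listed in neither. Of the 13 genes listed for receptors and their signalling, most did not follow the induced genes. In WT 4 lay above and 7 below the untreated libraries (28.7% and 33.8% of genes), and in DKO 3 and 6 (28.5% and 34.2%). Ifnar1, a type I receptor subunit, was at a ratio of 0.772 in WT and 0.744 in DKO, and Jak1 at 0.571 and 0.632.

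A second list of 55 further interferon-induced genes had 52 in both tables. Without a read filter, 31 of these lay above and 8 below in WT (28.7% and 33.8% of genes). In DKO 28 lay above and 11 below (28.5% and 34.2%). In the FPKM as deposited, 13 lay above and 13 below of the 39 past the filter in WT. Over all genes past the filter, 1544 of 17544 lay above and 12805 below there. In DKO 18 lay above and 13 below of 43, against 1545 above and 13052 below of 17506 genes. Of 17 genes of MHC class I presentation, 13 lay above and 2 below in each genotype (28.7% and 33.8% of genes in WT, 28.5% and 34.2% in DKO). H2-D1 stood at a ratio of 1.78 in WT and 1.60 in DKO, and B2m at 1.64 and 1.82. In the FPKM as deposited, 4 lay above and 3 below of the 16 past the filter in WT. In DKO 3 lay above and 3 below of 17, beside the same counts over all genes as for the second list. Nlrc5, the transactivator of MHC class I genes, stood at 4.48 and 2.55 RPM in untreated WT, 5.46 and 6.52 in untreated DKO, 21.7 and 26.0 in treated WT and 23.4 and 21.1 in treated DKO, and was singled out after its values were seen. Ifitm1 showed the reverse, at 14.5 and 15.9 RPM in untreated WT and 26.5 and 23.2 in untreated DKO against 5.42 and 3.19 in WT and 2.07 and 5.94 in DKO after 5-aza.

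Markers of other cell types stood lower in the 5-aza libraries, and those of hair matrix keratinocytes stood higher. The summed level of the 20 immune cell markers that both tables list, of 22 looked up, was 57.2 to 68.4 RPM in untreated WT and 113.0 to 131.3 in untreated DKO, against 34.5 to 38.1 in treated WT and 33.3 to 36.1 in treated DKO. Endothelial markers went from 31.4 to 39.3 RPM and 55.5 to 68.0 RPM down to 15.9 to 24.5 and 17.0 to 24.8, and fibroblast markers from 8966 to 20280 and 18470 to 22070 down to 2066 to 4145 and 2426 to 3723. The 12 hair matrix keratinocyte markers include the basal keratins Krt5 and Krt14. Their sum was 3296 to 3793 RPM in untreated WT and 4891 to 5254 in untreated DKO. After 5-aza the 12 markers summed to 4279 to 4365 RPM in WT and 5395 to 5659 in DKO. Of these, 6 lay above and 2 below in WT (28.7% and 33.8% of genes) and 8 above and 2 below in DKO (28.5% and 34.2%). In the FPKM as deposited 4 lay above and 5 below in WT, where 1544 of 17544 genes lay above and 12805 below. In DKO 5 lay above and 6 below, against 1545 above and 13052 below of 17506 genes. Without a filter, 15 immune markers lay below and 1 above in WT (33.8% and 28.7% of genes), and 18 below and 0 above in DKO (34.2% and 28.5%). In the treated libraries Ptprc, which marks all leukocytes, had 4 to 24 reads and Cd207, which marks Langerhans cells, had 0 to 2. The part of this change of makeup in the levels of the interferon-stimulated genes was not tested.

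**Figure D3:**
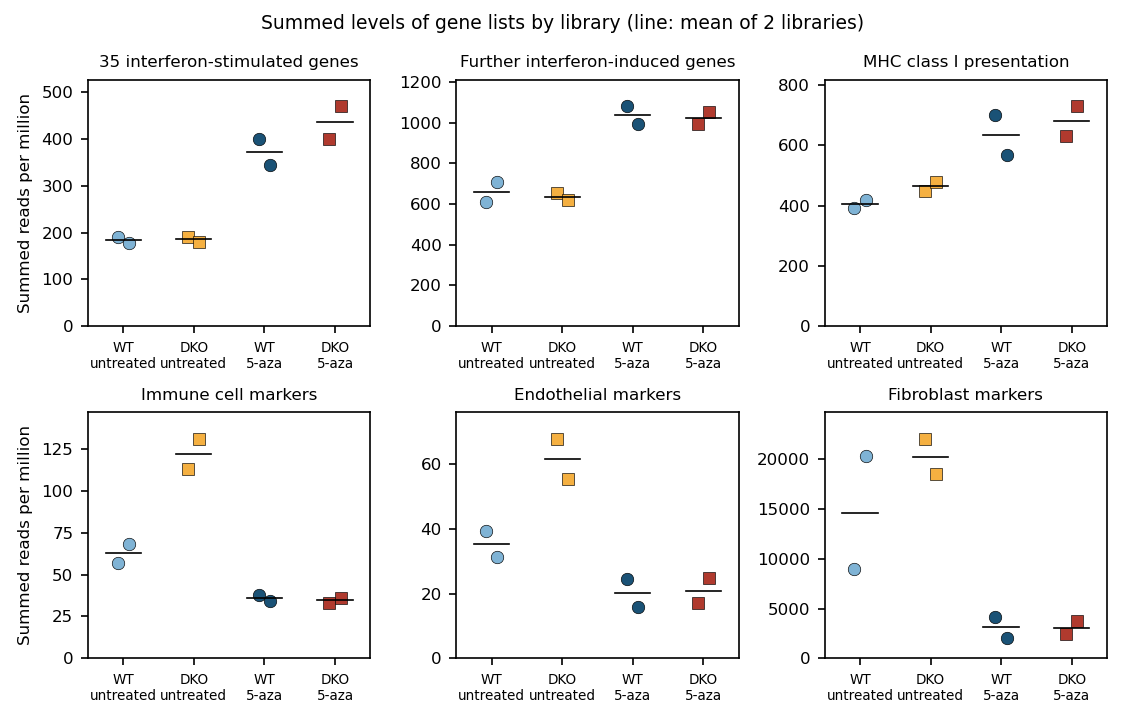
Summed level of 6 gene lists in each library (points; the line is the mean of 2 libraries), in RPM, with every vertical axis starting at 0. The 3 interferon-related lists are higher in the 5-aza groups and the immune, endothelial and fibroblast marker lists are lower there.

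Without treatment, no interferon-stimulated gene passed the adjusted threshold between DKO and WT. Differences were small on the log2(FPKM + 1) scale, which pulls those of genes below 1 FPKM toward 0. Closeness is therefore not shown for low members. In the authors' deposited table these had wide errors in both directions, such as Ifi47 (log2 difference 2.1 ± 1.8 SE) and Oasl1 (-0.99 ± 1.8). Of the 20 members past the read filter, 0 passed an adjusted p of 0.05 in limma on log2(FPKM + 1), where 0.00577% of genes did, and 10 lay on each side of 0 (53.8% of genes were on the positive side). Without the filter 22 of the 35 were positive (53.06% of genes), and leaving out 1 library gave 8 of 18 to 14 of 20. Bst2 alone was higher at an unadjusted p under 0.05 (6.72% of genes were higher), and 0 were lower (4.73%). The median log2 difference, DKO minus WT, was -0.0024 against 0.011 over all genes. Both DKO libraries lay above both WT libraries for 5 of these 20 members (24.1% of genes) and below for 2 (19.3%), and over all 35 members for 11 (21.97%) and 2 (16.75%). With voom on the reads, 0 members passed, and at the unadjusted level 0 were higher and 1 lower.

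Bst2 had 0.622 and 0.624 FPKM in untreated WT and 1.17 and 1.07 in untreated DKO, a difference of 0.38 ± 0.074 (SE) on the log2(FPKM + 1) scale (limma adjusted p = 0.219). It was higher in both DKO libraries and did not pass after adjustment. Parp14 (0.237 and 0.307 against 0.371 and 0.380 FPKM) and Trim25 (1.01 and 1.15 against 1.38 and 1.30) followed, also without overlap. The lowest members in DKO were Rtp4 (0.216 in both WT libraries against 0.170 and 0.143 FPKM) and Stat2 (1.36 and 1.49 against 1.22 and 1.14), whose groups did not overlap, and Cmpk2, whose groups did. Immune markers moved with genotype here: 14 of the 15 tested were higher in untreated DKO (53.8% of genes). At an unadjusted p under 0.05 in limma, 7 were higher (6.72% of genes) and 1 lower (4.73%). In the authors' deposited table Cd74, H2-Aa, H2-Ab1, H2-Eb1 and Csf1r were higher with adjusted p-values from 4.982e-10 to 0.03927. There 1.28% of genes passed in either direction. Hair matrix keratinocyte markers, a list that includes the basal keratins Krt5 and Krt14, were also higher in limma, in 12 of 12 (53.8% of genes). Of these, 4 were higher at an unadjusted p under 0.05 (6.72% of genes). In the authors' deposited table Krt14, Krt5, Hoxc13 and Foxn1 were higher with adjusted p-values from 2.854e-21 to 4.254e-05. Dlx3 was slightly lower there (log2 difference -0.024). The part of either marker set in the level of Bst2 was not tested.

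After 5-aza, most members leaned toward higher levels in DKO than in WT, and none passed the adjusted threshold. Of 33 members tested, 0 passed in limma (0.0% of genes did), 8 were higher at an unadjusted p under 0.05 (6.64% of genes) and 0 lower (2.3%). A positive difference was found in 28 of the 33 (62.8% of genes), and in 29 of 35 without the filter (58.18% of genes). Their median was 0.080 against 0.026 over all genes. Both DKO libraries lay above both WT libraries for 16 of the 33 (28.0% of genes) and below for 1, Gbp2 (11.6%). Voom on the reads also gave 0 members past the adjusted threshold and 8 higher at the unadjusted one. The lean rests in part on 1 library: positive differences fell to 19 of 31 without DKO replicate 2 and to 22 of 34 without WT replicate 2, and the members higher at the unadjusted level fell to 2 and 3.

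The 8 members were Usp18, Oas1a, Ifi35, Irf9, Isg15, Parp9, Trim25 and Ddx58. Usp18 had 0.283 and 0.260 FPKM in WT and 0.539 and 0.579 in DKO (difference 0.29 ± 0.044, limma adjusted p = 0.341). Oas1a had 0.418 and 0.256 FPKM in WT and 0.688 and 0.803 in DKO (0.39 ± 0.082, limma adjusted p = 0.393). In both genes the DKO libraries were the higher ones with a clear gap. Ifi35 had 1.37 and 1.44 FPKM against 1.82 and 2.02 (0.28 ± 0.073, limma adjusted p = 0.437). On the log2(FPKM + 1) scale Isg15 differed by the widest margin, 3.94 and 2.17 FPKM in WT against 5.37 and 6.5 in DKO (0.81 ± 0.24, limma adjusted p = 0.469). That scale understates differences of low genes. In the authors' deposited table the log2 differences of Oas1a (1.09) and Usp18 (0.98) were larger than that of Isg15 (0.90). Irf9 (1.47 and 1.46 against 1.90 and 1.84) and Trim25 (1.75 and 1.72 against 2.13 and 2.12) had the tightest replicates. Gbp2 had 0.658 and 0.553 FPKM in WT and 0.468 and 0.552 in DKO and lay the other way, by -0.088 ± 0.064. Gbp3 and Ifit2 had small negative differences of -0.042 ± 0.060 and -0.035 ± 0.066, with overlapping libraries.

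In the authors' deposited table for the 5-aza comparison, 8 members had an unadjusted p under 0.05, all higher in DKO (2.48% of genes were higher and 1.42% lower at that level). They were Isg15, Usp18, Parp9, Ifih1, Irf9, Ddx58, Oas1a and Irf7. The authors' deposited table gave 0 members an adjusted p under 0.05 (0.708% of genes passed), with the smallest, 0.6389, for Isg15 at a log2 difference of 0.90 ± 0.36 (SE). For the untreated comparison the authors' deposited table had 0 members under 0.05 at either level, where 3.03% of genes were higher and 2.58% lower before adjustment and 1.28% passed after it. Beyond the members, Irf5, a transcription factor of inflammatory sensing, was higher in DKO after 5-aza in the authors' deposited table (log2 difference 0.83 ± 0.21, adjusted p = 0.01605). Its level was 16.9 and 14.9 RPM in treated WT against 24.9 and 30.8 in treated DKO, with 0.48 ± 0.087 and an adjusted p of 0.357 in limma. Immune markers did not separate the genotypes after 5-aza, at 34.5 to 38.1 RPM in WT and 33.3 to 36.1 in DKO. Hair matrix keratinocyte markers, with the basal keratins Krt5 and Krt14 among them, leaned the same way as the interferon-stimulated genes. In limma 12 of 12 were higher in DKO after 5-aza (62.8% of genes), with a median log2 difference of 0.26 against 0.026 over all genes. Of these, 5 had an unadjusted p under 0.05 (6.64% of genes were higher) and 0 passed the adjusted threshold (0.0% of genes). In the authors' deposited table Krt14, Krt5 and Hoxc13 were higher with adjusted p-values from 2.179e-07 to 0.0004571. Msx2 (log2 difference 0.046) and Lef1 (0.040) differed little there, and Dlx3 was slightly lower (-0.028). The part of these markers in the lean was not tested. Of the 55 further interferon-induced genes, 3 of 44 tested were higher at an unadjusted p under 0.05 in limma and 0 lower. Of the 17 MHC class I genes 1 was higher and 0 lower. Both counts of higher genes lay near the share over all genes, where 6.64% were higher and 2.3% lower.

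**Figure D4:**
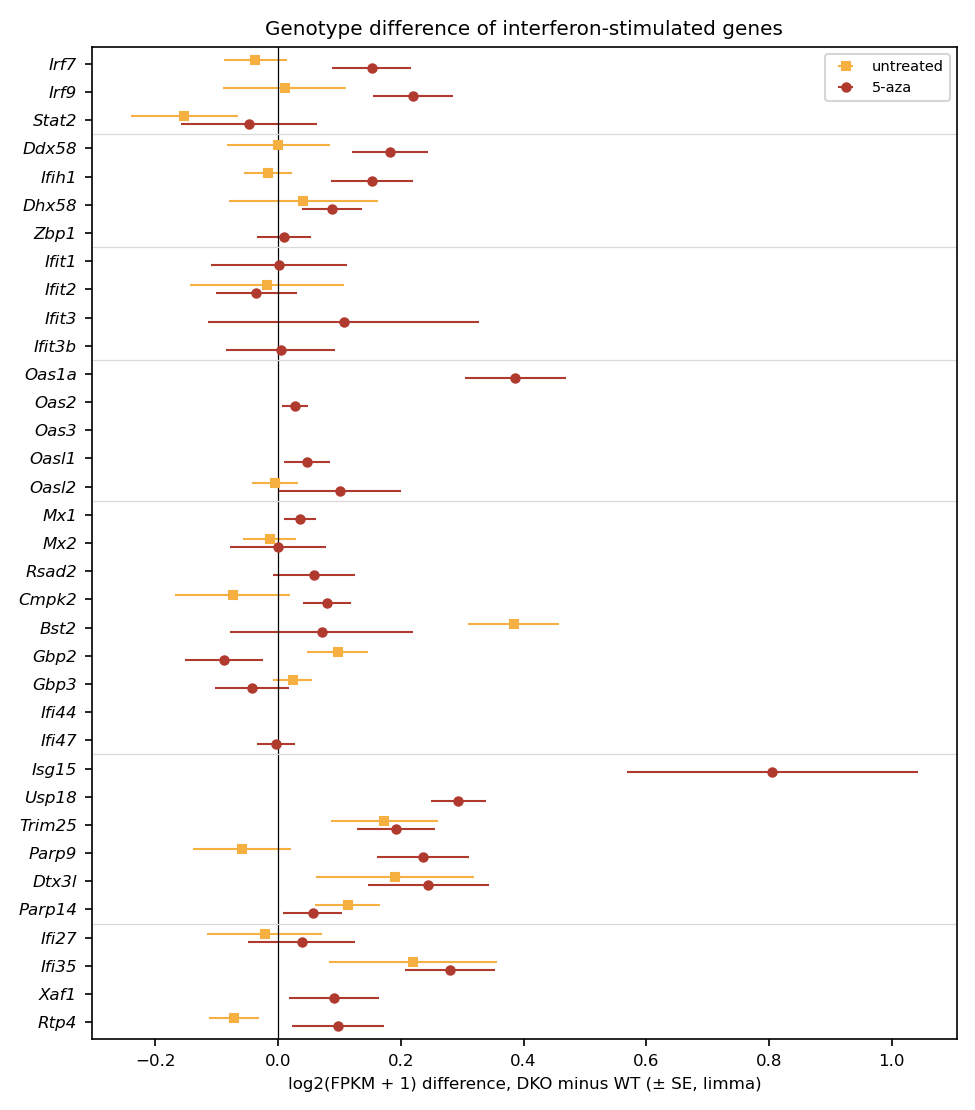
Difference between DKO and WT on the log2(FPKM + 1) scale (x axis, with bars of 1 SE from limma) for each interferon-stimulated gene past the read filter (rows), in untreated cells (squares) and after 5-aza (circles). Squares scatter around 0 apart from Bst2, and circles lie mostly to the right of 0, with Isg15 and Oas1a farthest.

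The difference between these genotype differences was tested as an interaction over all 8 libraries. Of 33 members, 0 passed in limma (0.027% of genes did), and 25 had a larger DKO minus WT difference after 5-aza than without it (55.6% of genes). At an unadjusted p under 0.05, 2 members were higher (3.05% of genes) and 0 lower (3.04%). These were Usp18 (0.25 ± 0.061, limma adjusted p = 0.537) and Parp9 (0.30 ± 0.11, limma adjusted p = 0.808). Oas1a came next (0.26 ± 0.11, limma adjusted p = 0.826). On the negative side stood Gbp2 (-0.19 ± 0.080), Bst2 (-0.31 ± 0.18) and Ifi47 (-0.052 ± 0.044), with limma adjusted p-values of 0.828, 0.895 and 0.935. A scaling difference between the tables that touches both genotypes alike cancels here only for genes well above 1 FPKM, and most members lie below that level. With voom on the reads, 0 members passed and 1 was higher at the unadjusted level. These unadjusted counts rest on single libraries: 6 members were higher and 0 lower without replicate 1 of the WT or of the DKO 5-aza group, 1 higher and 2 lower without the WT 5-aza replicate 2, 1 higher and 1 lower without the DKO 5-aza replicate 2, and 4 higher and 0 lower without the untreated DKO replicate 1.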

How the data were processed

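RNA-seq of 8 libraries in 4 groups was used. The submitters' processing notes list the tools Trim Galore, STAR, HTSeq and DESeq2, without versions, and as builds mm10 and GRCm38. The authors deposited 1 table for untreated and 1 for 5-aza cells. Library values were read as FPKM, as deposited by the authors: no header names them so, but multiplied by the length they give whole reads within 0.001 for every gene. The authors' mean of size-factor-scaled reads is a signal. Their deposited fold changes are log2 of WT over DKO, reversed here. The authors' test statistic is a score, and the deposited p-value columns hold raw and adjusted p. The deposited length is in bases.

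Genes were fitted that reached 10 reads, scaled to the median library, in 2 libraries and 15 in total, as log2(FPKM + 1) with limma 3.58.1 (R 4.3.3, variance trend, two-sided, Benjamini-Hochberg over 17339 untreated, 16856 5-aza and 18505 interaction genes). The log scale understates changes of low genes. The fit was tested on simulated data. Across tables, RPM plus 0.1 was compared without a test, since the tables were normalised separately. Overlaps with neighbours came from GENCODE M21.

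Members and lists were chosen with earlier results of these data known. Named genes were the 2 with the highest mean FPKM per role, the 3 with the smallest p per direction and comparison, the 3 at each end across tables, and for other lists the called genes, the 2 smallest p and the 2 highest FPKM. Alternatives were the pseudocount, filter, scaling, variance trend, voom, replicate block, a fit of all libraries and leaving out each library. A gene counted in a list is not reported here by its own values.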

Additional observations from a re-analysis of the deposited data

Results flagged for a closer look

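Gbp2 had opposite genotype differences without overlap in the 2 treatments: both DKO libraries were above both WT libraries untreated (0.228 and 0.260 against 0.131 and 0.196 FPKM) and below them after 5-aza (0.468 and 0.552 against 0.658 and 0.553 FPKM). The difference of the differences was -0.19 ± 0.080 (SE) on the log2(FPKM + 1) scale, and it did not pass (limma adjusted p = 0.828).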

How the results depend on the processing

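The count of members past the adjusted threshold was 0 for both genotype comparisons and the interaction under every alternative run. The counts of members above both untreated libraries kept within 1.5 times, except that leaving out 1 library gave 17 to 28 in WT, with 17 of 21 tested without the WT 5-aza replicate 1, where fewer members passed the filter; in DKO the range was 22 to 29. With the deposited FPKM it was 19 of 31 in WT and 22 of 30 in DKO.

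With the deposited FPKM, the 5-aza difference turned for 4 members in WT (Stat2 -0.2625, Dtx3l -0.1832, Rtp4 -0.1067 and Parp9 -0.0486) and 3 in DKO (Stat2 -0.0928, Dtx3l -0.0833 and Ifit2 -0.00998). Without 1 library at a time, Ifih1 in WT ranged from -0.5855 to 0.4975 (turning without the WT 5-aza replicate 2 and, at 0.151, without the untreated WT replicate 1). The genotype differences of Cmpk2 untreated ranged from -0.1842 to 0.0365 (turning without WT replicate 2), of Ifit2 after 5-aza from -0.0903 to 0.0197 (WT replicate 2) and of Gbp3 after 5-aza from -0.1134 to 0.029 (DKO replicate 1). The cause was not tested.

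Same-numbered libraries share only a number: their deviations correlated at 0.0317 in untreated and -0.5893 in 5-aza cells. For the interaction, members higher at an unadjusted p under 0.05 numbered 0 to 3 over the other alternatives and 1 to 6 without 1 library, and members lower 0 to 1 and 0 to 2. With the replicate block, 0 members passed in any comparison, and 4 instead of 8 were higher after 5-aza at an unadjusted p under 0.05. Over all genes the block gave 13 calls in place of 1 untreated, 0 after 5-aza as without it, and 0 in place of 5 for the interaction. A crossed pairing of the 5-aza libraries, chosen after seeing the data, gave 91 genes and 0 members past the adjusted threshold. Counts over all genes at the adjusted threshold also moved untreated with the pseudocount of 0.1 (8), voom (77) and all 8 libraries in 1 fit (129). Low reads limit Ifit1, Ifit3, Ifit3b, Oas3, Ifi44 and Ifi47, whose untreated levels rest on few reads.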
